A study of Mus musculus with 12 samples.

Results

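Transcripts of 10 genes for inflammatory cytokines and the inflammasome were measured by RNA-seq in primary mouse microglia of 2 *Trem2* genotypes, with and without the anti-inflammatory cytokine IL-4. The genes were *Il1a*, *Il1b*, *Il1rn*, *Il18*, *Tnf*, *Il6*, *Il10*, *Il12b*, *Nlrp3* and *Casp1*. They were chosen by gene symbol and not by their values, and each symbol matched 1 of the 48623 Ensembl identifiers in the table. Values are TPM (an abundance per transcript length that sums to 1000000 in every library). Of the 10 genes, 7 were among the 11204 genes with a mean log2(TPM + 1) above 1.5, which were the genes tested, and 3 (*Il6*, *Il10* and *Il12b*) lay below that limit.

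The cultures came from newborn mice on the C57BL/6J background and were either wild type (WT) or knock-in (KI), the latter carrying the R47H mutation on both copies of the mouse's own *Trem2* gene. Mixed glia from cortex and hippocampus were grown to confluence, the astrocyte layer was lifted off by mild trypsinization, and the microglia left behind were plated in conditioned medium. There were 3 cultures of each genotype, called T13, T33 and T43 (WT) and T15, T22 and T32 (KI), and each was sequenced untreated and after IL-4 (20 ng/ml, 48 h), so that 12 libraries fell into 4 groups of 3. Genotype therefore differed between cultures and IL-4 within them. The limma model below had no term for culture and took both libraries of a culture as independent, except where a block is named. Pups of KI litters were cultured separately and genotyped afterwards. For WT the methods describe preparations pooled from the pups of a litter, whereas the sequenced WT cultures are called littermates of the KI mice, so whether a WT culture stands for a single pup or a pool is not settled here. The sex of the pups was not given. No library received an inflammatory stimulus such as LPS, so all values describe cells at rest or after IL-4.

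Microglia are the resident macrophages of the brain. Interleukin-1 alpha and interleukin-1 beta act on the same receptor, which the antagonist encoded by *Il1rn* occupies without signalling. Interleukin-1 beta and interleukin-18 are made as inactive precursors, and the inflammasome, in which NLRP3 is a sensor and caspase-1 the protease, cleaves them, so their transcripts do not tell how much active cytokine was released. In macrophages, transcription of *Il1b*, *Tnf*, *Il6* and *Il12b* depends on NF-kappaB, while IL-4 signals through STAT6 and is known to restrain inflammatory cytokines and to raise the antagonist.

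The promoters of *Il6*, *Il1b* and *Il1rn* are shown because the comparisons below turn on these genes. Each sequence is the 250 bases before a RefSeq transcription start on GRCm38.p6, 5′ to 3′ on the strand of the gene. The window of *Il6* is chr5:30012864-30013113 on the plus strand, and its capitals mark a match to the NF-kappaB consensus. The window of *Il1b* is chr2:129371140-129371389 on the minus strand, and its capitals mark a TATA box. The window of *Il1rn* is chr2:24345121-24345370 on the plus strand, which belongs to a start inside the annotated gene, and its capitals mark a match to the STAT6 consensus.
Il6: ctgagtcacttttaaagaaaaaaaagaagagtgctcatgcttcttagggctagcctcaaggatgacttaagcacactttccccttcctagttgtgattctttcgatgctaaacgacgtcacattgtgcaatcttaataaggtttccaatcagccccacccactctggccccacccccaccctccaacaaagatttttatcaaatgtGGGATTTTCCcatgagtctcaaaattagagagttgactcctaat
Il1b: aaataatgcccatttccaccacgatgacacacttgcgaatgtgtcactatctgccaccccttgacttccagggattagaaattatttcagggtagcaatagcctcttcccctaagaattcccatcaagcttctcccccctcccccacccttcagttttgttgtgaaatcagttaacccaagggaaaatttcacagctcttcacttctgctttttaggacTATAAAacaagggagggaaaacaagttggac
Il1rn: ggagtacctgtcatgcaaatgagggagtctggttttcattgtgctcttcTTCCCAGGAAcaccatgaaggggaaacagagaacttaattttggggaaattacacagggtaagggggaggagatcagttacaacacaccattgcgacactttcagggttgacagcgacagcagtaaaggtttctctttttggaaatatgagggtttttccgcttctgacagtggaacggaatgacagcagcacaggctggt
The search covered both strands for the NF-kappaB consensus, for TTCNNNNGAA (STAT6) and for TATAAA, the core promoter box of many inducible genes, and RefSeq windows were found for 9 of the 10 genes, *Il10* being the exception, 12 windows in all. The NF-kappaB match lay 44 to 35 bases before the start of *Il6*, and a further one lay in a window of *Nlrp3*, so that 2 of the 12 windows held it, against 7.25% of 32851 windows of the same length. STAT6 matches lay in 4 of the 12 windows (*Il18*, *Nlrp3* and 2 overlapping windows of *Il1rn* that share the site), against 5.85% of all windows, and that in the *Il1rn* window shown lay 201 to 192 bases before the start. TATAAA was found in 4 of the 12 windows (*Il1a*, *Il1b*, *Tnf* and *Il18*), against 12.4% of all windows, and in *Il1b* it lay 31 to 26 bases before the start. None of these matches overlapped a match to another of the motifs. A match describes the letters only, and binding was not measured.

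*Trem2*, the gene carrying the knock-in allele, was lower in KI, at 325 to 770 TPM in untreated KI against 1328 to 1886 TPM in untreated WT (difference -1.43 on the log2(TPM + 1) scale, SE 0.19, adjusted p = 0.00763, limma), a call lost without T33 (adjusted p = 0.106) or T43 (adjusted p = 0.0766). The libraries were rich in microglia transcripts, and *Cd79a* and *Nkg7* of the lymphocytes were at 0 in all of them. Of 8 neutrophil and monocyte markers *Ly6g*, *S100a9* and *Ngp* were at 0 throughout, while *S100a8* was above 0 in 8 of 12 libraries and reached 14.8 TPM in untreated T13 and 9.52 TPM in untreated T15. The sum of these markers was 14.9, 4.18 and 3.03 TPM in untreated T13, T33 and T43 and 0.104 to 9.55 TPM in the other 9 libraries. Marker levels differed between genotypes. The summed TPM of 12 microglia markers was 17364 to 19024 in untreated WT and 7481 to 15993 in untreated KI, and 18203 to 22263 against 12359 to 17137 after IL-4. By genotype 4 of these markers fell in KI (*Csf1r*, *Aif1*, *Itgam* and *Fcrls*), of which 1 (*Aif1*) passed with the culture as a random block. Some other markers ran the opposite way. The summed TPM of 8 fibroblast and mural markers was 141 to 320 in untreated WT and 1051 to 1313 in untreated KI, where *Acta2* and *Tagln* rose and made up most of the sum. *Acta2*, the gene for smooth muscle actin, was 514, 679 and 787 TPM and *Tagln*, for another smooth muscle protein, 573, 341 and 509 TPM in untreated T15, T22 and T32. Of the 8 markers 5 were higher in every untreated KI library than in any untreated WT library. Besides *Acta2* and *Tagln* these were the collagens *Col1a1* (6.14 to 24.3 TPM in untreated KI, 2.93 to 4.43 TPM in untreated WT) and *Col1a2* (6.86 to 31.8 TPM, 1.77 to 4.26 TPM) and the mural receptor *Pdgfrb* (0.200 to 5.90 TPM, 0 to 0.103 TPM). After IL-4 2 of the 8 markers, *Acta2* and *Tagln*, were higher in every KI library than in any WT library. The fibroblast matrix gene *Dcn* was at 0.114, 5.96 and 0.016 TPM in untreated T15, T22 and T32. *Lum* did not exceed 3.94 TPM and the pericyte marker *Rgs5* did not exceed 0.790 TPM in any library. *Olig1* of the oligodendrocyte lineage also rose, a call lost with the block (adjusted p = 0.0634). The sum of 9 astrocyte markers reached 4788 in untreated T15, whereas it was 220 and 601 in T22 and T32 and 167 to 691 in WT. After IL-4 *Cx3cr1* fell and *C1qa* rose among the microglia markers, and *Flt1* and *Mrc1* rose. Of these marker calls *Flt1* and *Mrc1* held whichever culture was left out, whereas each of the others was lost without at least 1 culture. From cell staining of such cultures, the paper reported no substantial shift in the share of microglia between WT and KI, basal or with IL-4. Whether the sequenced cultures were among those counted is not stated. In such bulk libraries fewer cells of a type and less RNA per cell cannot be told apart.

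In untreated WT microglia the abundances, comparable between genes because TPM is per length, ran from *Il1b* (109 ± 92.2 TPM, mean ± SD, n = 3) and *Casp1* (64.4 ± 15.5) through *Il18* (24.6 ± 4.48) and *Tnf* (15.2 ± 3.57) to *Nlrp3* (3.88 ± 0.915), *Il1rn* (3.36 ± 4.41) and *Il1a* (1.62 ± 1.44). *Il6*, *Il10* and *Il12b* were listed at 0 in all 3 of these libraries. Neighbours in this order overlapped between libraries for *Il1b* and *Casp1*, and among *Nlrp3*, *Il1rn* and *Il1a*, but *Casp1* lay above *Il18*, *Il18* above *Tnf* and *Tnf* above *Nlrp3* in each library.

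**Figure D1:**
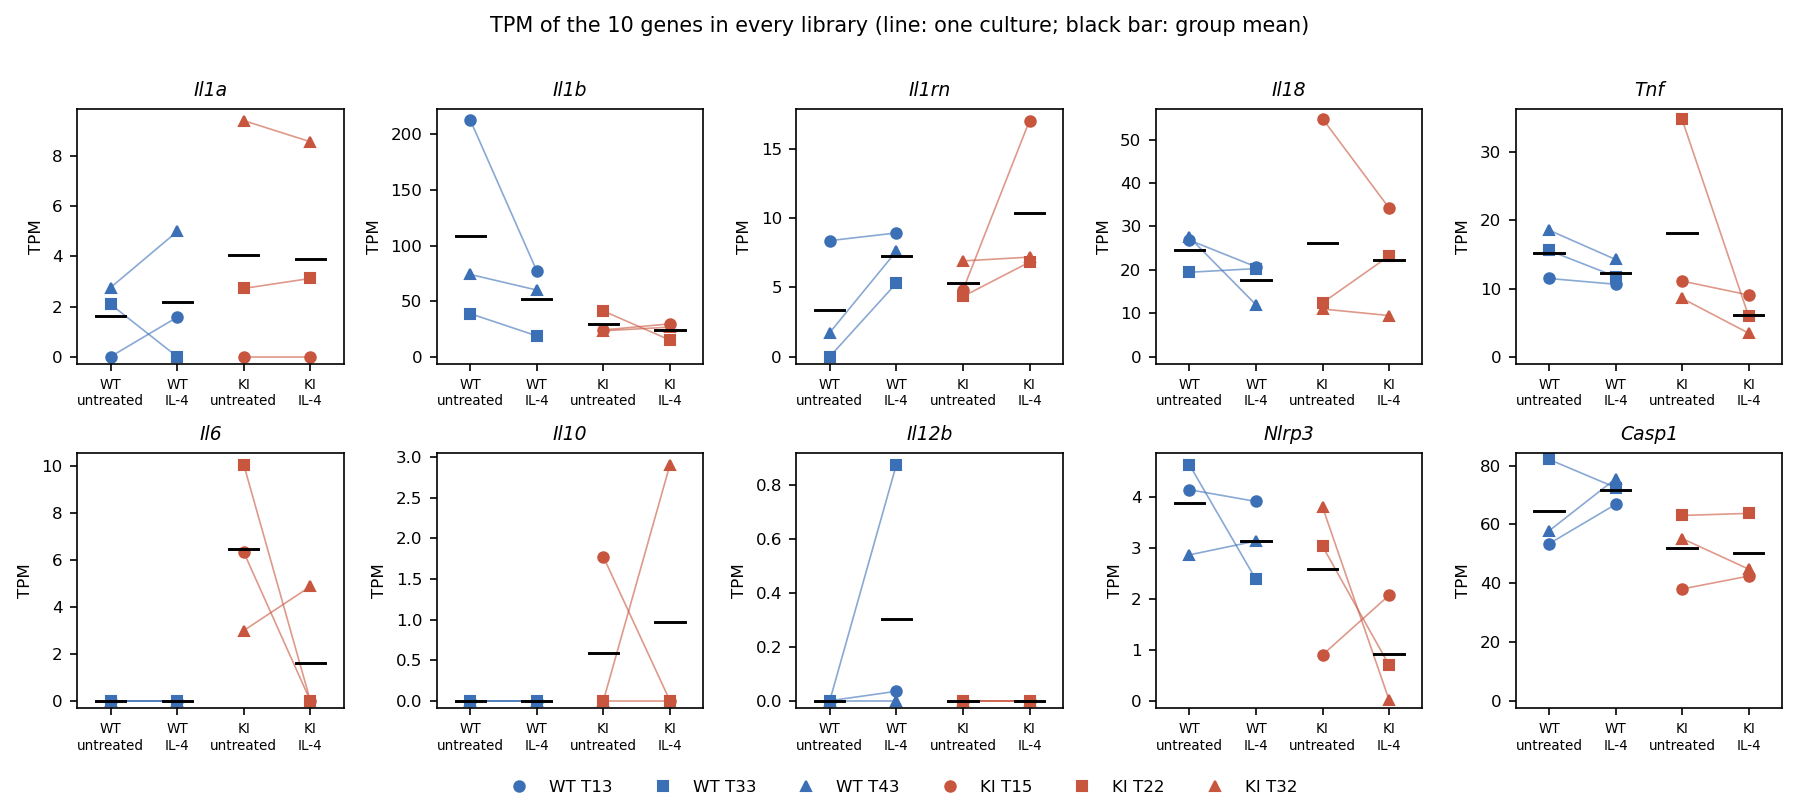
TPM of each of the 10 genes (vertical axes, linear, each gene on its own scale) in the 12 libraries, grouped as untreated or IL-4-treated WT (blue) and KI (red). A symbol is a library, a line joins the libraries of a culture and a black bar is the mean of 3 cultures. *Il6* is at 0 in all WT libraries, *Tnf* is lower and *Il1rn* higher after IL-4 in each culture, and *Il1b* is highest in untreated T13.

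By genotype none of the 7 genes tested passed the threshold (0 of 7, limma F-test of genotype and interaction, adjusted p from 0.227 for *Il1b* to 0.945 for *Il18*), beside 1.65% of all genes tested. At an unadjusted p under 0.05 there was 1 of 7, *Il1b*, beside 16.1% of all genes. With the culture as a random block 0 of 7 passed as well, where 77 of 11204 genes were called instead of 185. The median difference of the 7 genes, KI minus WT, was -0.42 on the log2(TPM + 1) scale against 0.13 for all genes tested. For IL-4 likewise 0 of 7 passed (adjusted p from 0.707 for *Tnf*), beside 0.893% of all genes, and 0 of 7 had an unadjusted p under 0.05, beside 7.27%. With the culture as a fixed block 0 of 7 passed as well, beside 2.14% of all genes (240 called instead of 100), but 3 of 7 had an unadjusted p under 0.05, beside 10.6%. These were *Tnf* (adjusted p = 0.422), *Il1b* (adjusted p = 0.432) and *Il1rn* (adjusted p = 0.455, limma). The median difference, IL-4 minus untreated, was -0.24 against 0.04. For the interaction, the response to IL-4 in KI minus that in WT, 0 of 7 passed the adjusted threshold and 0 of 7 the unadjusted threshold in limma, and 0.0% of all genes tested passed the adjusted threshold (357 of 11204 passed the unadjusted one). What follows is therefore mostly a description of values whose differences did not pass the adjusted threshold.

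**Figure D2:**
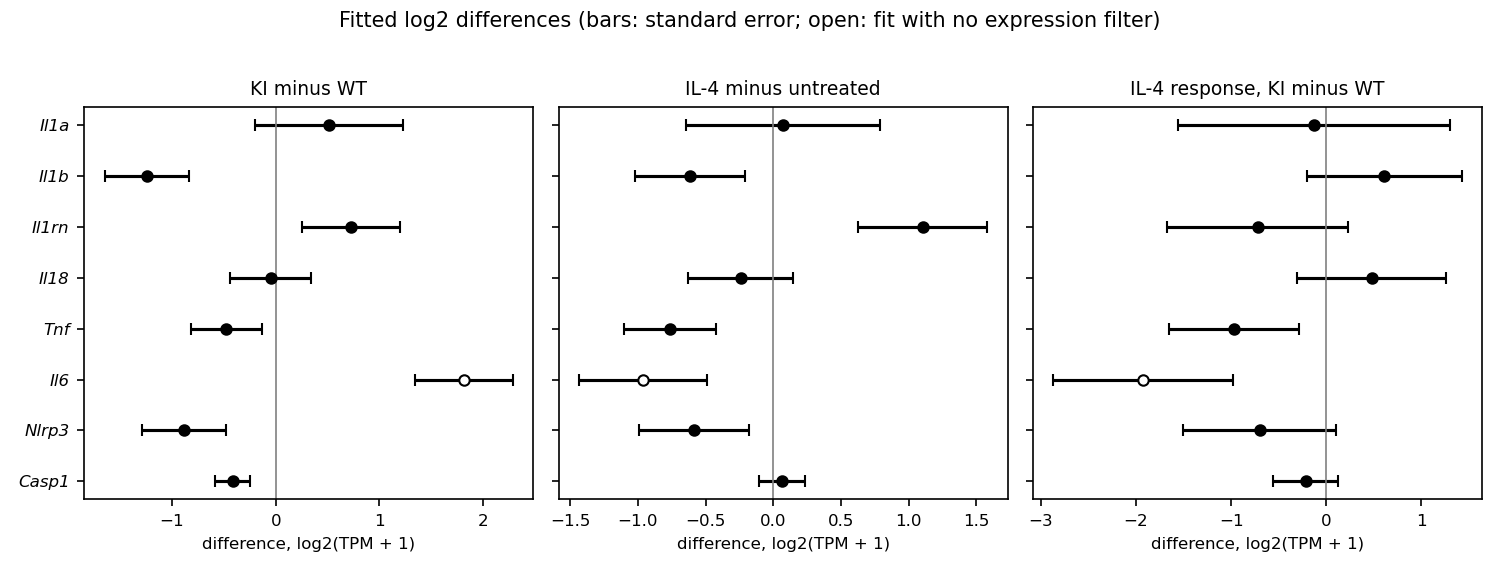
Fitted differences on the log2(TPM + 1) scale (horizontal axes) by genotype, by IL-4 and for the interaction, with bars of 1 standard error. The open symbol is *Il6*, taken from the fit with no expression filter. *Il1b* lies at -1.24 and *Il6* at 1.81 by genotype, and *Il1rn* at 1.10 and *Tnf* at -0.76 by IL-4.

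*Il1b* (chr2:129364570-129371139, minus strand), which encodes the precursor of interleukin-1 beta, was measured at 213, 38.7 and 74.0 TPM in untreated T13, T33 and T43, compared with 24.0, 41.1 and 23.2 TPM in untreated T15, T22 and T32. After IL-4 it was 77.2, 18.7 and 59.9 TPM in the WT cultures and 29.5, 14.9 and 26.6 TPM in the KI cultures. The highest value belonged to 1 WT library, T13, and the genotypes overlapped in both treatments, since T33 was as low as the KI cultures. The difference between genotypes was -1.24 on the log2 scale (SE 0.41), with an unadjusted p of 0.0242 and an adjusted p of 0.227 in limma, and it was -0.72 without T13. The neutrophil and monocyte marker sum was also highest in untreated T13, at 14.9 TPM, of which *S100a8* alone was 14.8 TPM. It was next highest in untreated T15, at 9.55 TPM, where *Il1b* was 24.0 TPM. The part of this sum in the *Il1b* values was not tested. By treatment *Il1b* was lower after IL-4 in all 3 WT cultures and in T22 and higher in T15 and T32 (-0.62, SE 0.41, adjusted p = 0.949, limma, and -0.34 without T22). Relative to the 12 microglia markers of the same library, a scaling that moved the median genotype difference of all genes from 0.13 to 0.75, the *Il1b* difference was -0.62, still below that median. The annotated antisense gene *Il1bos*, which the unstranded libraries cannot separate from *Il1b*, did not exceed 0.309 TPM.

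*Il1a* (chr2:129299610-129309972, minus strand), the gene for interleukin-1 alpha, sat just above the expression limit with a mean of 1.51. It was 0, 2.09 and 2.76 TPM in untreated T13, T33 and T43, 0, 2.72 and 9.42 TPM in untreated T15, T22 and T32, 1.57, 0 and 5.00 TPM in IL-4-treated WT and 0, 3.12 and 8.58 TPM in IL-4-treated KI. Both libraries of T15 were listed at 0 and both of T32 were the highest of all, so the cultures differed more than the treatments did. The KI minus WT difference was 0.52 (SE 0.72, adjusted p = 0.926, limma), and without T32 it was -0.26.

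*Il1rn* (chr2:24336853-24351494, plus strand), the gene for the interleukin-1 receptor antagonist, was 8.36, 0 and 1.73 TPM in untreated T13, T33 and T43 and 8.92, 5.29 and 7.60 TPM after IL-4. In T15, T22 and T32 it went from 4.79, 4.34 and 6.90 TPM to 17.0, 6.81 and 7.17 TPM. It was thus higher with IL-4 in 6 of 6 cultures, a pattern seen in 5.73% of all genes tested, but by 0.08 in T13 and 0.05 in T32 and by 2.65 in T33 on the log2(TPM + 1) scale. The mean response was 1.10 (SE 0.48, adjusted p = 0.788, limma). Untreated KI libraries lay inside the range of untreated WT libraries (difference over both treatments 0.73, SE 0.48, adjusted p = 0.633, limma), and without T33, whose untreated library was at 0, that difference was 0.24.

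The balance of antagonist to cytokine was taken within each library as log2((*Il1rn* + 1)/(*Il1b* + 1)), which apart from the pseudocount does not depend on how libraries are scaled. In untreated WT it was -4.52, -5.31 and -4.78 in T13, T33 and T43, and in untreated KI -2.11, -2.98 and -1.62 in T15, T22 and T32. The untreated genotypes did not overlap, the ratio being higher in each KI culture. After IL-4 it was -2.98, -1.64 and -2.82 in WT and -0.76, -1.02 and -1.75 in KI, where the ranges overlapped. With both treatments of a culture averaged, KI exceeded WT by 1.97 (means -1.71 and -3.68), with a 2-sided exact permutation p of 0.1, the smallest that 3 against 3 cultures allow. After IL-4 the ratio was higher in 5 of 6 cultures, T32 being the exception at -0.14, with a mean difference of 1.72 ± 1.23 (SD, n = 6) and an exact permutation p of 0.0625 by swapping treatments within cultures (smallest possible 0.031). Adjusted over these 2 tests both p-values were 0.1, so neither difference passed. *Il1b* exceeded *Il1rn* in all 12 libraries.

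**Figure D3:**
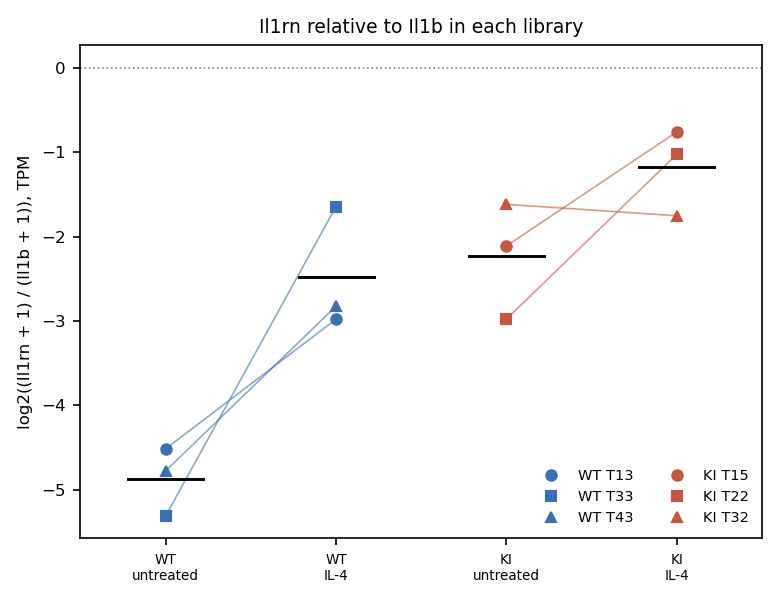
The ratio log2((*Il1rn* + 1)/(*Il1b* + 1)) of TPM values in each library (vertical axis), by group, with lines joining the libraries of a culture and black bars for means. Untreated WT lies lowest, from -5.31 to -4.52, and IL-4-treated KI highest, from -1.75 to -0.76, and the dotted line at 0 marks equal values.

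*Il18* (chr9:50554827-50581840, plus strand), whose product is released after cleavage by caspase-1, was 26.8, 19.4 and 27.5 TPM in untreated T13, T33 and T43 and 20.7, 20.3 and 12.0 TPM after IL-4. The KI cultures T15, T22 and T32 gave 54.8, 12.4 and 10.96 TPM untreated and 34.2, 23.2 and 9.45 TPM after IL-4. T15 was the highest library in each treatment and T32 the lowest, so that the KI cultures spread to either side of WT. Differences were -0.05 by genotype (SE 0.39) and -0.24 by IL-4 (SE 0.39), with adjusted p-values of 0.945 and 1.00 in limma. Antisense neighbours that overlap *Il18*, *Bco2* and *Tex12*, reached 7.08 and 4.16 TPM, and reads from either strand cannot be told apart in these libraries.

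*Nlrp3* (chr11:59541568-59566956, plus strand), the sensor, was 4.15, 4.64 and 2.87 TPM in untreated T13, T33 and T43 and 0.901, 3.04 and 3.805 TPM in untreated T15, T22 and T32. After IL-4 it was 3.91, 2.38 and 3.14 TPM in WT and 2.07, 0.697 and 0.013 TPM in KI. The untreated genotypes overlapped, while all 3 IL-4-treated KI libraries lay below all 3 IL-4-treated WT libraries, T32 being near 0. The difference was -0.88 by genotype (SE 0.40, adjusted p = 0.415) and -1.23 among IL-4-treated libraries (adjusted p = 0.485, limma).

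*Casp1* (chr9:5298517-5307265, plus strand), the protease, had the smallest standard errors of the 7 genes. It was 53.4, 82.1 and 57.7 TPM in untreated T13, T33 and T43 and 38.0, 63.0 and 55.2 TPM in untreated T15, T22 and T32, with overlap between genotypes. After IL-4 it was 66.8, 72.5 and 75.5 TPM in WT and 42.4, 63.7 and 44.7 TPM in KI, where every KI value lay below every WT value. The genotype difference was -0.42 (SE 0.17, adjusted p = 0.375, and -0.26 without T15) and the IL-4 difference 0.07 (SE 0.17, adjusted p = 1.00, limma).

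*Tnf* (chr17:35199381-35202007, minus strand), the gene for tumour necrosis factor, was 11.5, 15.6 and 18.6 TPM in untreated T13, T33 and T43 and 11.1, 34.8 and 8.55 TPM in untreated T15, T22 and T32. After IL-4 it was 10.6, 11.8 and 14.3 TPM in WT and 9.05, 5.92 and 3.44 TPM in KI. It was lower with IL-4 in 6 of 6 cultures, beside 2.51% of all genes tested, by 0.10 to 0.38 on the log2(TPM + 1) scale in WT and by 0.27, 2.37 and 1.11 in T15, T22 and T32. The mean response was -0.76 (SE 0.34, adjusted p = 0.707), and the response in KI minus that in WT was -0.97 (SE 0.68, unadjusted p = 0.177, limma). Without T22 these were -0.48 and -0.41. Untreated KI libraries lay on both sides of WT because T22 was the highest library of all.

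Among IL-4-treated libraries 3 of the 7 genes, *Tnf*, *Nlrp3* and *Casp1*, had every KI value below every WT value, beside 5.79% of all genes tested. None of the 7 had every KI value above, beside 12.7%. In untreated libraries 0 of 7 were below and 0 of 7 above without overlap, beside 4.55% and 13.6%. Of the 12 microglia markers 5 showed the same lack of overlap after IL-4 and 10 did untreated. Relative to those markers the KI minus WT difference among IL-4-treated libraries was -0.45 for *Tnf*, -0.72 for *Nlrp3* and -0.012 for *Casp1*, where the median of all genes lay at 0.60. Over both treatments it was 0.14 for *Tnf* and 0.20 for *Casp1*, of the opposite sign, and -0.27 for *Nlrp3*, where that median was 0.75. The part of the lower microglia marker values in these differences was not tested.

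*Il6* (chr5:30013114-30019981, plus strand), the gene for interleukin-6, was listed at 0 in all 6 WT libraries. In untreated T15, T22 and T32 it was 6.32, 10.0 and 2.98 TPM, and after IL-4 it was listed at 0 in T15 and T22 and was 4.86 TPM in T32. Untreated KI libraries thus lay above every WT library, and IL-4 went with a listing at 0 in 2 of 3 KI cultures but not in T32. Being listed at 0 in all 6 WT libraries and above 2 TPM in all 3 untreated KI libraries was a pattern of 5 of the 29745 genes above 0 in any library (0.0168%), the limit of 2 TPM having been set after the values were seen. The mirror pattern, at 0 in all KI and above 2 TPM in untreated WT, held for 4 genes.

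In the limma fit with no expression filter the genotype difference of *Il6* was 1.81 (SE 0.47, unadjusted p = 0.00625, adjusted p = 0.322), where 0.0538% of the 29745 genes passed, the IL-4 difference was -0.96 (SE 0.47, adjusted p = 0.867) and the interaction -1.93 (SE 0.94, adjusted p = 0.896). None of these passed. Without T32 every value outside untreated KI was 0, so that 3 of 4 groups carried no spread, and the differences, 1.58 by genotype, -1.58 by IL-4 and -3.17 for the interaction, are given as a description with no test. Fibroblasts are known to make interleukin-6. The summed fibroblast and mural markers were higher in all 3 untreated KI libraries (1051 to 1313 TPM) than in any untreated WT library (141 to 320 TPM). After IL-4 the sum was 737, 1190 and 701 TPM in T15, T22 and T32, where *Il6* was 0, 0 and 4.86 TPM. In IL-4-treated T13, T33 and T43 it was 278, 236 and 553 TPM, and *Il6* was 0 in each. *Acta2* and *Tagln* made up most of these sums. *Col1a1*, *Col1a2* and *Pdgfrb* were likewise above every untreated WT library in untreated KI. The highest values of both collagens were in IL-4-treated T43, at 85.9 TPM for *Col1a1* and 81.7 TPM for *Col1a2*. The part of these markers in the *Il6* values was not tested. The astrocyte marker sum was 4788, 220 and 601 TPM in untreated T15, T22 and T32 and 167 to 691 TPM in untreated WT, and its part was not tested either.

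*Il10* (chr1:131019845-131024974, plus strand), the anti-inflammatory cytokine, was listed at 0 in 10 of 12 libraries and reached 1.77 TPM in untreated T15 and 2.91 TPM in IL-4-treated T32. *Il12b* (chr11:44400063-44414033, plus strand), the subunit shared by interleukin-12 and interleukin-23, was likewise at 0 in 10 libraries, with 0.035 and 0.874 TPM in IL-4-treated T13 and T33. Since single libraries carry these values, no difference is given. A listing at 0 does not show absence, because 2 of the 2538 genes whose median exceeded 50 TPM were also listed at 0 in at least 1 library.

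Other genes of the pathway were taken from 5 lists. Of the 18 inflammasome sensors, adaptors and effectors 13 were tested and 0 passed in either comparison in limma, with an unadjusted p under 0.05 for *Txnip* and *Ninj1* by genotype and for *Txnip* by IL-4. The median genotype difference of this list was -0.37. *Pycard*, the adaptor that links NLRP3 to caspase-1, was 135, 173 and 171 TPM in untreated T13, T33 and T43 and 95.1, 148 and 161 TPM in untreated T15, T22 and T32 (-0.37 over both treatments, SE 0.14, adjusted p = 0.321). Of the 18 symbols listed for further IL-1 family ligands, receptors and signalling proteins 8 were tested and 0 passed. *Il1rap*, the receptor's accessory chain, had an unadjusted p of 0.0164 by genotype (1.09, SE 0.41, adjusted p = 0.192, limma). Of 10 genes for receptors of TNF, IL-6, IL-10 and IL-12 and for the shedding of TNF 8 were tested and 0 passed, with *Il10ra* by genotype (-0.53, SE 0.17, adjusted p = 0.195) and *Tnfrsf1b* by IL-4 (0.40, SE 0.14, adjusted p = 0.603) under an unadjusted 0.05. *Pycard*, *Il1rap*, *Il10ra* and *Tnfrsf1b* were named after their values were seen.

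Of 18 other inflammatory cytokine genes 6 were listed at 0 in all 12 libraries (*Il12a*, *Lta*, *Il19*, *Ifnb1*, *Ifng* and *Il1f5*) and 5 were tested, of which 0 passed in limma. The nearest was *Ebi3*, a subunit of interleukin-27, at 18.1 to 35.8 TPM in untreated KI and 33.7 to 62.5 TPM in untreated WT (-0.90, SE 0.21, unadjusted p = 0.00267, adjusted p = 0.0848). *Csf2*, the gene for the growth factor GM-CSF, was at 0 in all 6 WT libraries, as *Il6* was, at 0.090, 2.30 and 1.48 TPM in untreated T15, T22 and T32 and at 0, 0 and 1.32 TPM after IL-4. In the fit with no expression filter its genotype difference was 0.73 (SE 0.30, unadjusted p = 0.0728, adjusted p = 0.655, limma). *Ebi3* and *Csf2* were named after their values were seen. In all, 28 genes were at 0 in all WT libraries and above 0 in all untreated KI libraries.

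The 14 genes that restrain cytokine transcripts or NF-kappaB were all tested. By genotype 1 of 14 passed, and 1 of the 48 genes tested over the 5 lists, beside 1.65% of all genes tested. It was *Tnip3*, whose product binds the NF-kappaB inhibitor A20, and by IL-4 0 passed in limma, with *Zfp36l1*, *Tnip3* and *Atf3* under an unadjusted 0.05. *Tnip3* was 54.1, 33.4 and 39.7 TPM in untreated T13, T33 and T43 and 6.03, 11.4 and 2.86 TPM in untreated T15, T22 and T32. After IL-4 it was 54.9, 39.7 and 55.8 TPM in WT and 18.0, 12.4 and 29.6 TPM in KI. Every KI value lay below every WT value within a treatment, and *Tnip3* fell in KI by 1.98 on the log2 scale (SE 0.29, adjusted p = 0.00998, limma). The difference was -2.61 untreated (adjusted p = 0.0130) and -1.35 after IL-4 (adjusted p = 0.328), and relative to the microglia markers it was -1.37 (adjusted p = 0.00905). The call was lost without T33 (adjusted p = 0.0813) and without T43 (adjusted p = 0.0934). *Tnip3* was higher with IL-4 in each culture (0.88, SE 0.29, adjusted p = 0.317, limma), a pattern seen in 5.73% of all genes tested. The rise was uneven, from 54.1 to 54.9 TPM in T13 and from 2.86 to 29.6 TPM in T32.

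**Figure D4:**
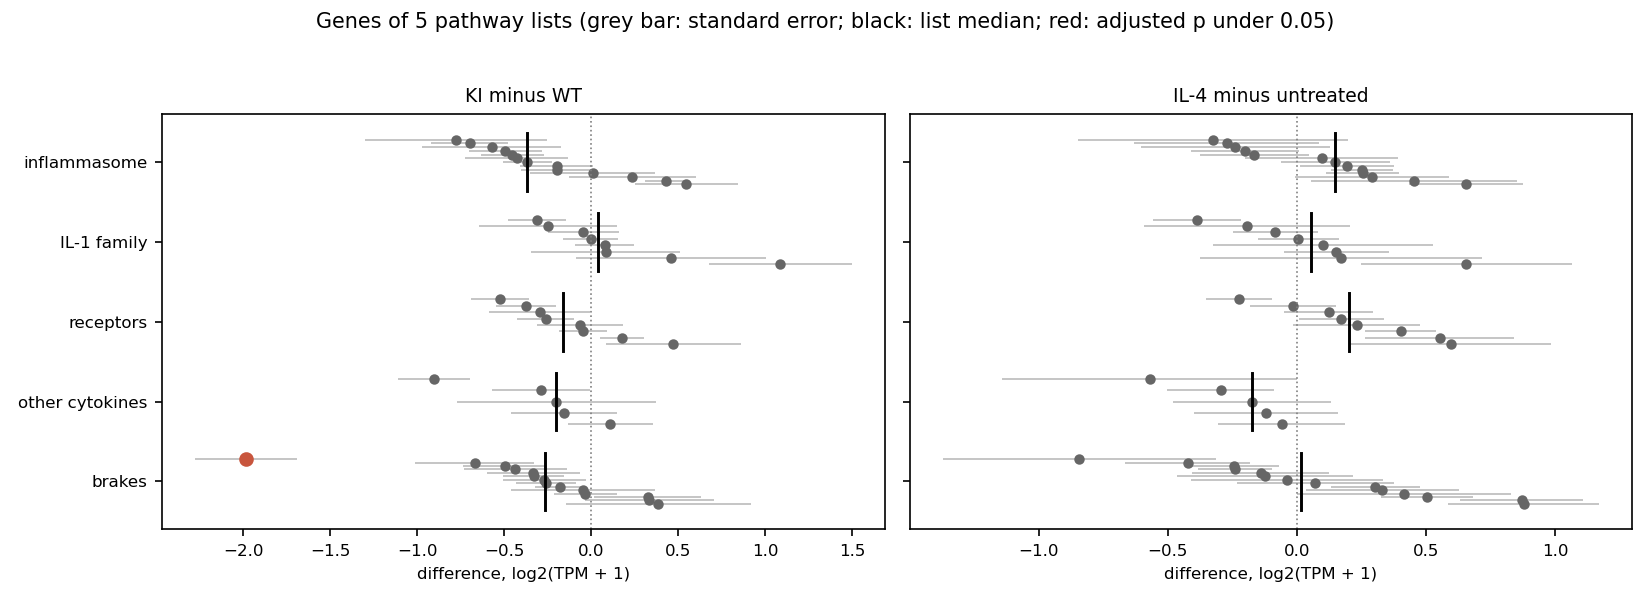
Fitted differences on the log2(TPM + 1) scale (horizontal axes) of the tested genes in 5 lists, by genotype (left) and IL-4 (right), with grey bars of 1 standard error and black bars at the median of each list. The only gene past the adjusted threshold, in red, is *Tnip3* at -1.98 among the brakes by genotype.

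**Figure D5:**
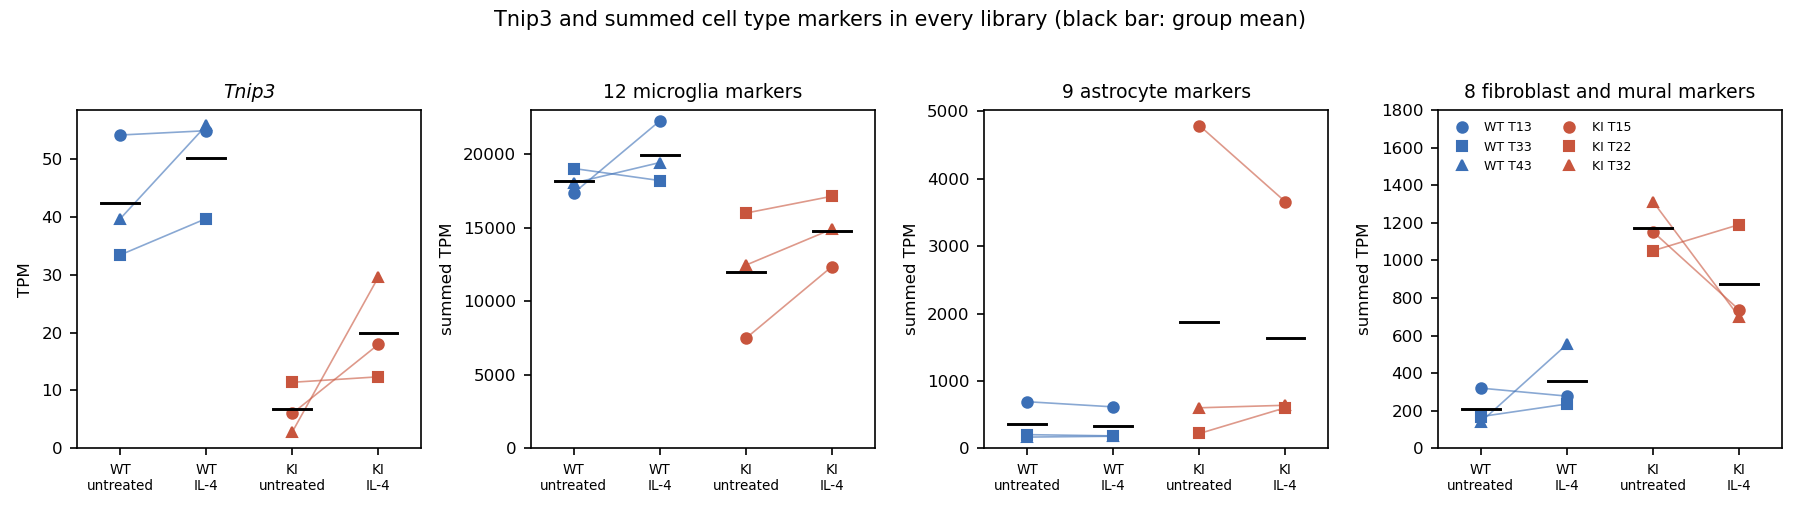
TPM of *Tnip3* and summed TPM of the microglia, astrocyte and fibroblast and mural markers (vertical axes, linear from 0) in the 12 libraries, with lines joining the libraries of a culture and black bars for means. *Tnip3* and the microglia sum are lower in KI, the fibroblast and mural sum is higher, and the astrocyte sum stands out in T15, at 4788 untreated.

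The genes whose log2(TPM + 1) followed each member most closely over the 12 libraries were different from member to member. These correlations describe 12 libraries from 6 cultures, were the highest of 11204 genes searched, and carry no test. For *Il1b* they were *Rogdi* (r = 0.943), *Tmem176b* (0.891) and *Tmem176a* (0.890), the last pair being neighbouring membrane protein genes. For *Il1rn* they were *Ganc* (0.925), *Vamp5* (0.908) and *Pttg1ip* (0.906), and for *Il1a* *Gm25190* (0.904) and *Wwp1* (0.885). *Tnf* ran with *Pus7l* (0.897), *A130014A01Rik* (0.851) and *Uqcc2* (0.840). *Il18* ran with *Sfxn5* (0.945), *Fam133b* (0.937) and *Dbp* (0.893). *Nlrp3* ran with *Rgs14* (0.947), *Dapk1* (0.944) and *Nrp2* (0.907), and *Casp1* with *Tpm3* (0.949), *Arhgdia* (0.935) and *Ly9* (0.919). No member was among the nearest genes of another. Between members r was highest for *Tnf* with *Nlrp3* (0.66), followed by *Nlrp3* with *Casp1* (0.55) and with *Il1b* (0.55), and lowest at -0.80 for *Il1a* with *Il18*, where T15 and T32 lay at opposite ends.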

How the data were processed

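RNA-seq libraries of 12 primary microglia samples were analysed. Per the labels and the methods, adaptors were removed by Trim Galore, Salmon estimated transcript abundance on ENSEMBL GRCm38 with GC and positional bias correction, and tximport combined transcripts into genes. The deposited values are TPM. Versions of these tools are not given in the sources used here. The labels name a nominal 28M reads with 12 libraries on a lane. TPM keeps no counts, so the depth reached by each library is not given here and only the spread between cultures measures precision. Identifiers were named and placed with the GENCODE M21 annotation of GRCm38 (48419 of 48623 matched). Values were taken as log2(TPM + 1), so fold changes of low genes are understated, and genes with a mean above 1.5 entered a linear model in limma 3.58.1 (R 4.3.3, empirical Bayes with the variance following expression) over all 12 libraries, with Benjamini-Hochberg adjustment over all 11204 genes tested and a threshold of 0.05. The genotype test takes genotype and interaction together, the IL-4 test IL-4 and interaction together. Differences are averaged over the other factor. Summaries used Python 3.11.15 with pandas 2.3.3. The fit was tested on simulated data.

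The authors tested read counts with a likelihood-ratio test, for which the limma F-test stands in. Libraries pair by the culture number in the sample names, and the deviations from group means of paired libraries correlated at 0.0792 to 0.378. The members and gene lists were chosen with earlier results of these data known. Named were all 10 members, *Trem2*, list genes past the threshold (at most 4 per list and comparison) and the 3 genes most correlated with each tested member. Exceptions are stated, and some genes that met these rules are not reported here. The symbol *Il36g* of the IL-1 family list was not matched, while *Il1f9* of the same list was. Alternatives were other pseudocounts, filters, scalings, variance models, contrasts, a replicate block and leaving out each culture. Those for genes below the filter were added after seeing the data.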

Additional observations from a re-analysis of the deposited data

How the results depend on the processing

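The count of members past the threshold stayed at 0 for genotype, IL-4 and the interaction when 1 choice was changed at a time, including the random or fixed replicate block (0 called) and each culture left out. With 2 choices changed together, added after seeing the data, the genotype count of the 7 members past the filter reached 1. It was *Il1b* in the 1-coefficient test without T33 (-1.82, adjusted p = 0.0367, limma, where 91 of 11204 genes were called). It was *Il1rn* relative to the microglia markers in the 1-coefficient test (1.34, adjusted p = 0.0260, limma, where 5816 genes were called) and in untreated libraries (1.81, adjusted p = 0.0427, limma, where 4069 were). With that scaling and no expression filter 3 of all 10 members passed by genotype and 4 in untreated libraries. There 17924 and 17373 of 29745 genes were called. Among the 3 members below the expression filter the count by genotype moved from 0 to 2 (*Il6* and *Il10*) relative to the microglia markers, where 17924 of 29745 genes were called, and leaving out a culture gave 0 to 1 in each of the 3 tests, the 1 being *Il6* without T32, where 3 of 4 groups are all 0 and the measured spread comes from 2 untreated KI libraries alone. Over the 5 pathway lists the genotype count of 1 (*Tnip3*) moved to 0 with no expression filter, 0 with no variance trend, 0 in IL-4-treated libraries alone, 2 with quantile normalization and 2 with the 1-coefficient test (*Ebi3* added), 8 relative to the microglia markers (7 of them higher in KI, where 4121 of 11204 genes were called) and 0 to 1 without a culture. The fixed block moved the count of all genes called by IL-4 from 100 to 240. The random block moved the count of all genes called by genotype from 185 to 77. Leaving out a culture gave 3 (without T33) to 191 (without T13) genes called by genotype. The block changed no call of a member or of *Tnip3*. The *Il1rn* to *Il1b* ratio kept its direction, at 2.37 (IL-4) and 2.57 (genotype) with a pseudocount of 0.1, and leaving out a culture gave 1.33 to 2.09 and 1.83 to 2.12.

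Differences that turned sign had not passed the threshold before or after, and the cause was not tested. By genotype they were *Tnf* (0.14 relative to the microglia markers and 0.010 in untreated libraries), *Casp1* (0.20 relative to the markers), *Il18* (0.57 relative to the markers, 0.19 in IL-4-treated libraries and -0.60 to 0.40 over the cultures left out) and *Il1a* (-0.26 to 1.398 over the cultures left out). By IL-4 they were *Casp1* (-0.016 relative to the markers and -0.042 in KI) and *Il1a* (-0.15 with quantile normalization, -0.0097 relative to the markers and -0.23 to 0.51 over the cultures left out). For the interaction it was *Il1a* (0.22 with quantile normalization and -1.01 to 0.48 over the cultures left out).

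With 3 cultures of each genotype, differences such as that of *Il1b* did not pass the adjusted threshold, and its values overlapped between genotypes in both treatments. Only a nominal depth is stated and TPM keeps no counts, so values of a few TPM carry a counting error that could not be computed. Genotype and the marker levels that moved with it cannot be told apart.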
